A study of Homo sapiens with 4 samples.

Results

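The genes described here are VCAN, which encodes the secreted chondroitin sulfate proteoglycan versican, and 9 genes for proteoglycans of the cell surface and pericellular matrix. These are the syndecans SDC1, SDC2, SDC3 and SDC4, the glypicans GPC1, GPC3 and GPC4, agrin (AGRN) and perlecan (HSPG2). They are 10 of the 61541 genes in the deposited table. VCAN was picked on its large difference between the groups compared here, so its values are given as a description with no test, and the others were added for their biology. RNA was sequenced from MHCC97H, an established human hepatocellular carcinoma (HCC) cell line, with 2 control libraries (shCon) and 2 libraries from cells in which UBXN1, a gene for an adaptor of the ubiquitin system, was knocked down with a short hairpin RNA (shUBXN1). All 4 libraries are of the same line. The labels give neither the hairpin used nor whether the replicates were separate cultures, so p-values measure only the spread between these libraries, which may be technical.

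A proteoglycan is a core protein that carries long sulfated sugar chains, the glycosaminoglycans. Syndecans span the membrane and carry mainly heparan sulfate, glypicans are held on the outer leaflet by a lipid anchor, and agrin and perlecan are large heparan sulfate proteoglycans of basement membranes. The heparan sulfate chains bind growth factors, Wnt proteins, chemokines and matrix proteins and present them to their receptors. Versican instead carries chondroitin sulfate, binds hyaluronan through its N-terminal domain and builds a hydrated matrix around cells. In the healthy liver hepatocytes express syndecans, whereas GPC3 is known as an oncofetal gene that many HCCs switch on.

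The stretches of DNA just before VCAN, GPC1, SDC3 and SDC4 are shown because the transcripts of these genes showed the largest differences among the members. Each has 124 bases and ends at the last base before the gene's start, 5′ to 3′ along the gene, from the RefSeq promoter windows of GRCh38.p14. Capitals mark the GC box GGGCGG or its reverse complement CCGCCC, the sequence bound by Sp1 family factors. The positions are chr5:83471494-83471617 on the plus strand for VCAN, chr2:240435539-240435662 on the plus strand for GPC1, chr1:30908759-30908882 on the minus strand for SDC3 and chr20:45348425-45348548 on the minus strand for SDC4. The gene's start is that of the GENCODE annotation. For VCAN the RefSeq window, chr5:83471494-83471793, is set on a start further downstream. The VCAN stretch thus lies farther from its RefSeq start than the other stretches do from theirs.
VCAN: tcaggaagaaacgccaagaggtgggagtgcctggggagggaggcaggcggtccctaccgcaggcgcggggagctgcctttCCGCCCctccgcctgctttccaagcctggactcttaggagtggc
GPC1: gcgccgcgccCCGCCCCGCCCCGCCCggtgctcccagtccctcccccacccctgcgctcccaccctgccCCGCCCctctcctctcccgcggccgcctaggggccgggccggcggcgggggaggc
SDC3: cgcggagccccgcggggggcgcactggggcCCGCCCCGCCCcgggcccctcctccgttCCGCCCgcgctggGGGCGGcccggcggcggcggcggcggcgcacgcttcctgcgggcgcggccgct
SDC4: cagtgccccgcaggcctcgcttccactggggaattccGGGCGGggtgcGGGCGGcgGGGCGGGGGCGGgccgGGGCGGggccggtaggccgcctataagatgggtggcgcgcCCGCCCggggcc

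RefSeq windows of 300 bases, from 250 before to 50 after a start, were found for 7 of the 10 members, with 2 windows for SDC1. Counted on both strands, with overlapping matches included, the GC box occurred 1 time in the window of VCAN, 4 times in GPC1, 6 times in SDC3 and 8 times in SDC4. It occurred 10 times in HSPG2, 1 time in each window of SDC1 and 2 times in GPC4. Of all 35116 windows, 45.0% held at least 1 GC box. None of the 8 member windows held TATAAA on either strand, a sequence present in 11.5% of all windows. By base composition the VCAN window was the least GC-rich of the 8, at 60.3% G or C against 67.7% to 84.0% in the others and a median of 58.7% over all windows. The RNA libraries do not measure what is bound at these sequences.

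Total counts came to 27380508 and 24305174 for the shCon and to 23433826 and 23373700 for the shUBXN1 libraries, and 16863 genes had enough counts to be tested. UBXN1 itself had 67.1 and 77.3 CPM (counts scaled to a common library size with TMM factors) in shCon and 16.8 and 18.5 in shUBXN1, so the targeted gene followed the labels. Among all genes tested with edgeR's quasi-likelihood test, 28.0% were higher in the knockdown and 28.2% lower, counted at p-values adjusted by Benjamini-Hochberg under 0.05. The rule of the study asks for a 2-fold difference with p under 0.05 before adjustment, and the paper names limma for its differential expression. With edgeR's values in place of limma's, 11.8% were higher and 6.09% lower by this rule. The 2 groups did not overlap in CPM for 78.0% of all genes tested, so a lack of overlap in 2 against 2 libraries was common. Counts on the mitochondrial genome made up 5.28% and 5.59% of shCon and 7.43% and 8.27% of shUBXN1 libraries.

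VCAN was nearly lost from the shUBXN1 libraries. The gene lies at chr5:83471618-83582303 on the plus strand (ENSG00000038427). It had 2283 and 1824 counts in the shCon libraries and 71.3 and 85 in the shUBXN1 libraries. This is 85.6 and 77.6 CPM in shCon and 2.88 and 3.63 CPM in shUBXN1, so every knockdown library was far below every control library. The fitted log2 fold change of shUBXN1 against shCon was -4.65 with a standard error (SE) of 0.120, and the level in shUBXN1 was 3.98% of that in shCon. Ranked from the most negative log2 fold change, VCAN was number 19 of the 16863 genes tested. Its level per length, in TPM (counts per base of gene length, scaled to a common sum), went from the percentile 53.7 of tested genes in shCon to the percentile 7.10 in shUBXN1. In a bulk sample, fewer cells that express VCAN and less VCAN RNA per cell cannot be told apart.

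Reads of genes that overlap VCAN could add little to these values. The antisense gene VCAN-AS1 shares 453 bases, or 3.09%, of the exon sequence of VCAN, and had 1.73 counts in a single shUBXN1 library and 0 in the other 3. On chromosome 5 the nearest tested gene before VCAN was XRCC4, a factor of DNA end joining that ends 117830 bases away. XRCC4 had 11.7 and 13.5 CPM in shCon and 5.86 and 6.58 in shUBXN1, a log2 fold change of -1.02 (SE 0.153, adjusted p = 5.70e-05). The nearest tested gene after it, EDIL3, which encodes a secreted integrin ligand, had 17 and 13 counts in shCon and 6 and 8 in shUBXN1 and did not pass the test (log2 fold change -1.02, SE 0.567, adjusted p = 0.141). The 3 genes whose log2 CPM over the 4 libraries lay closest to VCAN by Euclidean distance were GRAMD1B at 1.70, EGR1 at 1.78 and C4BPA at 1.84. GRAMD1B, a sterol transfer protein, went from 71.3 and 70.6 CPM to 6.59 and 8.41. EGR1, an immediate early transcription factor, went from 37.3 and 48.7 to 4.97 and 6.54, and C4BPA, a subunit of the complement regulator C4b-binding protein, from 33.2 and 34.1 to 2.95 and 2.86. This likeness is a description over 4 libraries that the large difference in VCAN itself determines.

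**Figure D1:**
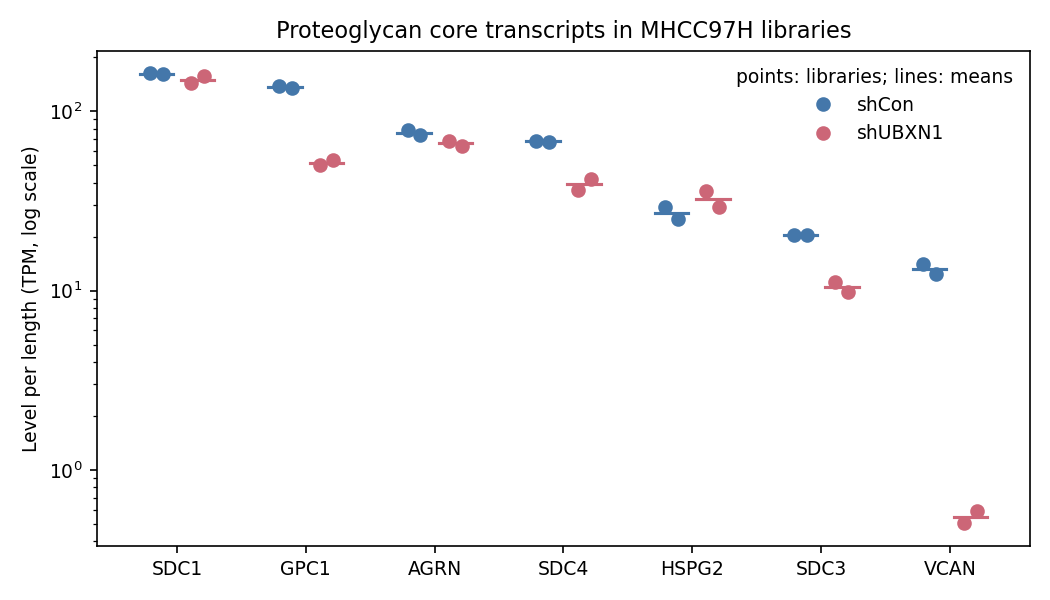
Level per length in TPM (log axis) of the 7 members with enough counts to be tested. Each point is a library and each short line a group mean of 2 libraries, and VCAN is at 12.4 to 14.1 in shCon and at 0.506 to 0.592 in shUBXN1.

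Of the 9 other members, 6 had enough counts to be tested, and 4 of these, GPC1, SDC3, SDC4 and AGRN, were lower in shUBXN1 at an adjusted p under 0.05. None was higher, and SDC1 and HSPG2 did not pass. Among all genes tested, 28.2% were lower and 28.0% higher at this threshold. By the 2-fold rule of the study, applied to edgeR's values, GPC1 and SDC3 were lower, beside 6.09% of all genes tested. The median log2 fold change over the 6 genes was -0.55, against 0.02 over all genes tested. The groups did not overlap in CPM for any of the 7 members that were tested, VCAN included, nor for 78.0% of all genes tested.

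GPC1 differed most among these 6. It encodes glypican-1, a lipid-anchored co-receptor for fibroblast growth factors, and lies at chr2:240435663-240468076 (ENSG00000063660). The shCon libraries had 252 and 255 CPM and the shUBXN1 libraries 86.3 and 98.3. Both knockdown libraries were thus well below both controls, with a log2 fold change of -1.46 (SE 0.0808, adjusted p = 3.87e-09) and a level at 36.4% of shCon. The call held under all 14 alternative settings, with log2 fold changes from -1.70 to -1.37.

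The other glypicans of the set were not detectable at a level that could be compared. GPC3 had 0 counts in all 4 libraries. GPC4 had 0 counts in 3 libraries and 1 count in a shUBXN1 library. A count of 0 allows up to 3 counts per library, which is 0.113 to 0.128 CPM here, and these limits cover counting error only. GPC3 and GPC4 are neighbours on the X chromosome, at chrX:133535745-133987100 and chrX:133300103-133415489, with 120255 bases between them. Among the glypicans outside the set, GPC6, named after its values were seen, had 461 and 350 counts in shCon and 781 and 666 in shUBXN1 and was higher (log2 fold change 0.90, adjusted p = 7.72e-06), so the glypicans did not move in 1 direction.

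Among the syndecans, SDC3 and SDC4 were lower, and SDC1 had the highest level in both groups. SDC3 encodes syndecan-3, known mainly from neural tissue, and lies at chr1:30869466-30908758. It had 52.8 and 54.6 CPM in shCon and 26.95 and 25.5 in shUBXN1, with both knockdown libraries near the same level (log2 fold change -1.03, SE 0.0830, adjusted p = 1.35e-07). Over the alternative settings its log2 fold change was -1.13 to -0.91, so it passed the adjusted threshold in each but fell short of a fold change of 2 with total count scaling (-0.95) and with limma on log2(TPM + 1) (-0.91). SDC4, at chr20:45325288-45348424, encodes syndecan-4, a receptor at focal adhesions. It had 87.8 and 89.3 CPM in shCon and 43.7 and 54.5 in shUBXN1. The 2 shUBXN1 libraries differed more than the 2 shCon libraries but stayed below them (log2 fold change -0.85, SE 0.0943, adjusted p = 3.21e-06).

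SDC1, at chr2:20200797-20225433, encodes syndecan-1, the main syndecan of epithelial cells. It had 253 and 259 CPM in shCon and 209 and 246 in shUBXN1. The second shUBXN1 library came close to the controls, and the difference did not pass the test (log2 fold change -0.17, SE 0.0845, adjusted p = 0.0996). Over the 14 alternatives it lay between -0.31 and -0.06, and without shUBXN1 replicate 2 it was -0.31 with an adjusted p of 0.000123. SDC2, the fibroblast-type syndecan at chr8:96493813-96611790, had 5, 0, 2 and 4 counts in the 2 shCon and 2 shUBXN1 libraries and was too low to compare.

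Since the syndecans differ in length, their mix was taken from TPM. SDC1 made up 64.7% of the summed syndecan TPM in each of the shCon libraries and 75.1% in each of the shUBXN1 libraries. SDC4 held 27.2% and 27.03% in shCon and 19.0% and 20.2% in shUBXN1, and SDC3 held 8.13% and 8.23% in shCon and 5.85% and 4.70% in shUBXN1. SDC2 stayed at or below 0.0499% in every library. The summed syndecan TPM was 252 and 249.6 in shCon and 191 and 208 in shUBXN1. The higher share of SDC1 thus went with a lower sum, since SDC1 itself was at 163 and 162 TPM in shCon and 143 and 156 in shUBXN1. These shares restate the values above and were not tested.

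The basement membrane proteoglycans differed little. AGRN encodes agrin, which organises neuromuscular synapses and is also made in liver tumours, and lies at chr1:1020120-1056118. It had 283 and 273 CPM in shCon and 232 and 234 in shUBXN1, with the libraries of each group close together (log2 fold change -0.25, SE 0.0726, adjusted p = 0.00839). The call was lost without shCon replicate 1 and without shCon replicate 2, where the adjusted p was 0.112 in each case. HSPG2 encodes perlecan and lies at chr1:21822244-21937310. It had 206 and 183 CPM in shCon and 237 and 209 in shUBXN1, so the higher control library and the lower knockdown library nearly met (log2 fold change 0.20, SE 0.0855, adjusted p = 0.0638). HSPG2 passed as higher in 6 of the 14 alternatives, among them without shCon replicate 1 (0.29, adjusted p = 0.0389) and without shUBXN1 replicate 2 (0.27, adjusted p = 0.00143). With the trend of fold change with GC content removed it was at -0.0014 (adjusted p = 0.991).

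The opposite-strand gene LDLRAD2 shares 11.7% of the exon bases of HSPG2 but had at most 35.02 counts in a library, against 4298 to 5869 for HSPG2. An unnamed gene on the same strand shares 3.74% of those of AGRN and had at most 4.03 counts. When the GC trend was removed, the members moved in the order of the GC content of their longest transcripts. The correction is computed from GC content alone, so this order describes the correction and not the members. AGRN, with 67.9% G or C in its longest transcript, then had a log2 fold change of -0.53, and SDC1, with 60.1%, had -0.29 and passed (adjusted p = 0.0117).

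**Figure D2:**
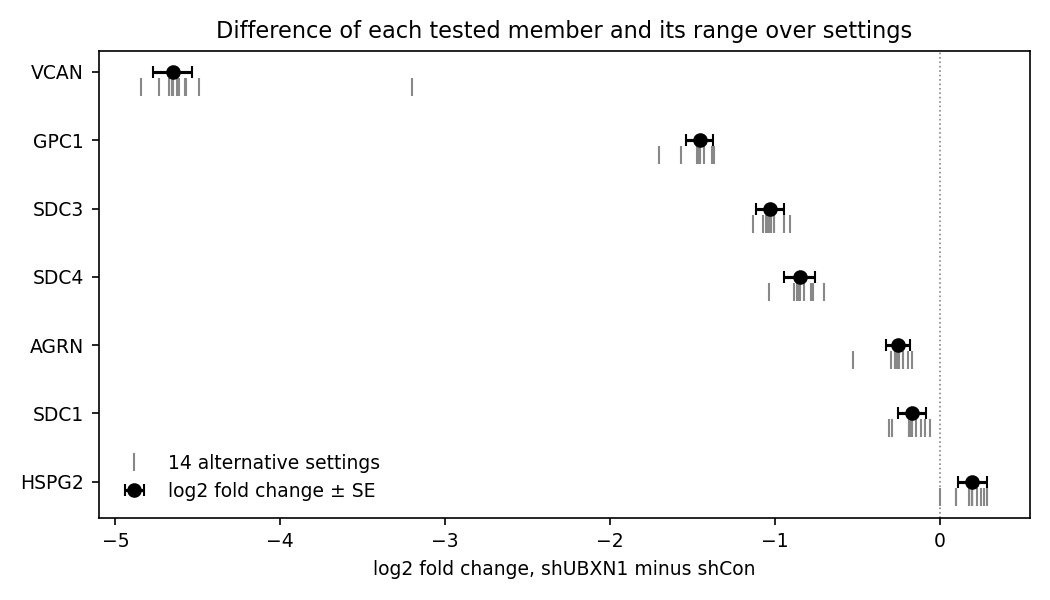
The log2 fold change of shUBXN1 against shCon for the 7 tested members. Black points with bars are the values given in the text with their SE, and grey ticks are the 14 alternative settings, which for HSPG2 run from -0.0014 to 0.29 and for VCAN from -4.84 to -3.20.

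The order of the members by TPM changed at the top. In shCon the mean levels fell from SDC1 at 162 TPM through GPC1 at 137, AGRN at 76.1, SDC4 at 68.0, HSPG2 at 27.3 and SDC3 at 20.5 to VCAN at 13.3. In shUBXN1 AGRN, at 66.5 TPM, stood above GPC1, at 51.7, and the rest kept their places with SDC1 at 149.8, SDC4 at 39.1, HSPG2 at 32.6, SDC3 at 10.5 and VCAN at 0.549. The libraries of neighbours in either order did not overlap among these 7 genes. The 3 members left, SDC2, GPC4 and GPC3, were at or under 0.115 TPM. Without VCAN, the members summed to 497 and 484 TPM in shCon and to 345 and 355 in shUBXN1.

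The genes that build, bind and cut proteoglycans were described with 10 lists of 127 genes in all, of which 93 were tested. Of these, 34 were higher and 29 lower in shUBXN1 at an adjusted p under 0.05, and 30 did not pass. These are 36.6% higher and 31.2% lower of the tested list genes, beside 28.0% and 28.2% of all genes, and the difference was not tested. The calls of each single list below stand beside the same shares of all genes, also with no test.

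**Figure D3:**
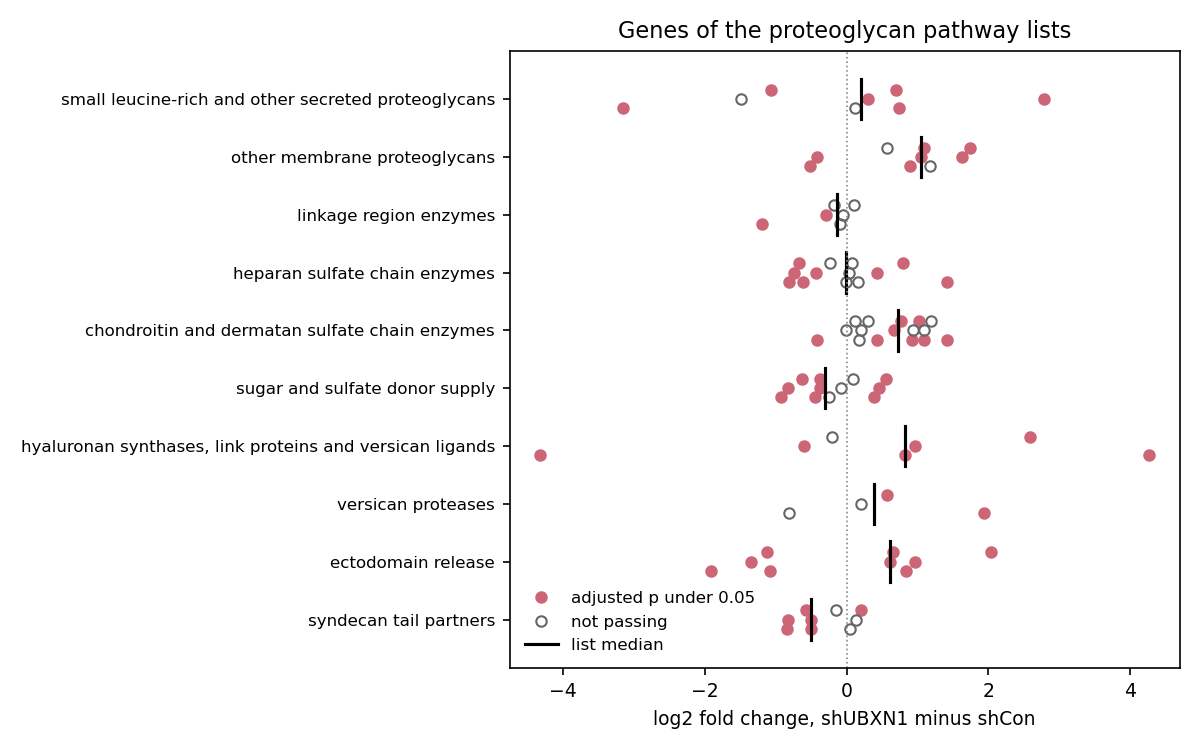
The log2 fold change of each tested gene in the 10 pathway lists, with filled points for an adjusted p under 0.05, open points for genes that did not pass and a vertical bar for the list median. The medians of the 16 chondroitin and dermatan sulfate chain enzymes (0.72) and of the 9 syndecan tail partners (-0.50) lie on opposite sides of 0.

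Other core proteins moved in both directions. Over all genes tested, 28.0% were higher and 28.2% lower. Of 9 tested membrane proteoglycans outside the set, 5 (55.6%) were higher and 2 (22.2%) lower, with a median log2 fold change of 1.05. With DESeq2 and without shCon replicate 1, 3 were higher, and with limma on log2(TPM + 1) the median was 0.42. NRP2, a semaphorin and VEGF receptor that can carry a glycosaminoglycan chain, went from a mean of 58.7 CPM to 182 (log2 fold change 1.63, adjusted p = 8.38e-10), and TGFBR3, the betaglycan co-receptor of TGF-β, from 17.9 to 38.1 (1.08, adjusted p = 5.40e-07). CSPG4 and CSPG5 were also called higher, at low counts. CSPG4 had 9 and 10 counts in shCon and 43.9 and 18 in shUBXN1. CSPG5, whose log2 fold change is the list median, had 19 and 24 in shCon and 36 and 50 in shUBXN1. NRP1, the paralogue of NRP2, was lower (-0.51, adjusted p = 5.69e-05), as was CD44, the hyaluronan receptor (-0.42, adjusted p = 0.000319). Of 19 secreted proteoglycans, 8 were tested, 4 were higher and 2 lower, but 2 were higher without shCon replicate 2 and with the GC trend removed, and 1 was lower without shCon replicate 1. SRGN, the granule proteoglycan serglycin, went from 16.7 to 27.1 CPM (0.70, adjusted p = 0.000169), and LUM, the collagen-binding lumican, from 32.0 to 15.3 (-1.06, adjusted p = 1.28e-06). BGN and DCN, which encode biglycan and decorin, passed in opposite directions at very low counts. BGN had 4 and 3 counts in shCon and 29 and 19 in shUBXN1, and DCN had 17 and 13 in shCon and 2 and 1 in shUBXN1. The call of DCN was lost without shCon replicate 1 (adjusted p = 0.0567).

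The partners of versican in the matrix included large differences in both directions. Of 7 tested genes for hyaluronan synthases, link proteins and versican ligands, 4 (57.1%) were higher and 2 (28.6%) lower. Over all genes tested the shares were 28.0% higher and 28.2% lower. TNC, the matrix glycoprotein tenascin-C, had 808 and 679 counts in shCon and 36 and 35 in shUBXN1 (log2 fold change -4.32, SE 0.149, adjusted p = 5.71e-11), which is close in size to the difference of VCAN. HAPLN3, a link protein that fixes lecticans to hyaluronan, had 92.8 and 100.02 counts in shCon and 565 and 552 in shUBXN1 (2.59, SE 0.141, adjusted p = 3.25e-09). FBN1, which encodes the microfibril protein fibrillin-1, went from a mean of 55.7 to 109 CPM (0.97, adjusted p = 1.92e-07). HAS2, a hyaluronan synthase, went from 13.8 to 9.05 CPM (-0.61, adjusted p = 0.00195). The opposite-strand gene HAS2-AS1 shares 5.92% of the exon bases of HAS2. HAS2-AS1 had 124.71 and 84.15 counts in shCon and 24.32 and 31.15 in shUBXN1, so part of the difference of HAS2 is uncertain without knowledge of strand. Partners of versican were thus found on both sides. Of 4 tested versican proteases, ADAMTS1 (0.57, adjusted p = 0.0119) and ADAMTS4 (7 and 1 counts against 19.8 and 10.04) were called higher, and neither call held in all alternatives. DESeq2 called neither, with adjusted p-values of 0.0820 and 0.207.

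The enzymes that build the sugar chains were listed by chain type, and their calls stand beside 28.0% higher and 28.2% lower of all genes tested. All 16 genes of chondroitin and dermatan sulfate synthesis were tested, of which 7 (43.8%) were higher and 1 (6.25%) lower. Their median log2 fold change of 0.72 was 0.34 with limma on log2(TPM + 1). CHST11, a chondroitin 4-O-sulfotransferase, went from 23.3 to 62.2 CPM (1.42, adjusted p = 9.96e-09), and CHPF2, a chondroitin polymerising factor, from 81.0 to 164 (1.02, adjusted p = 8.65e-08). The gene SMARCD3 on the opposite strand shares 20.3% of the exon bases of CHPF2 and itself had 117 and 103 counts in shCon and 861 and 811 in shUBXN1, so part of the difference of CHPF2 is uncertain without knowledge of strand. CHST3, a chondroitin 6-O-sulfotransferase, was lower (-0.42, adjusted p = 0.00579), a call lost without shCon replicate 2 (adjusted p = 0.0587) and with limma on log2(TPM + 1) (adjusted p = 0.110).

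Of 13 tested heparan sulfate enzymes, 3 (23.1%) were higher and 5 (38.5%) lower, beside 28.0% and 28.2% of all genes tested. The median of these enzymes was near 0 and its sign depended on the libraries and on the method. It ran from -0.37 without shUBXN1 replicate 2 to 0.11 without shUBXN1 replicate 1. With all libraries kept it was 0.07 with total count scaling and -0.05 with the GC trend removed. In both of these settings 4 enzymes were higher, and with DESeq2 and limma on log2(TPM + 1) 2 were. The number higher was 2 without either shCon library and without shUBXN1 replicate 1. SULF2, the extracellular sulfatase that removes 6-O-sulfates from heparan sulfate, went from 93.9 to 251 CPM (1.42, SE 0.0756, adjusted p = 2.64e-09). The opposite-strand gene NCOA3 shares 3.54% of the exon bases of SULF2. NCOA3 had 6650 and 5716 counts in shCon and 5191 and 5092 in shUBXN1, and the strand setting is not known. EXT2, a subunit of the chain polymerase, went from 110.5 to 192 CPM (0.79, adjusted p = 1.24e-06). NDST1, which starts sulfation of the chain, went from 79.0 to 45.1 CPM (-0.81, adjusted p = 6.58e-07), and HS2ST1, the 2-O-sulfotransferase, from 75.1 to 44.9 (-0.74, adjusted p = 4.79e-06). The difference between the chain types was not tested.

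Over all genes tested, 28.0% were higher and 28.2% lower. Of 6 tested enzymes for the linkage sugars that both chain types share, none was higher and 2 (33.3%) were lower. These were B3GALT6, which adds a galactose of the linkage (-1.19, adjusted p = 6.65e-07), and FAM20B, a kinase for its xylose (-0.30, adjusted p = 0.00732), whose call was lost without shCon replicate 2 (adjusted p = 0.0573). With the GC trend removed, 4 were lower. In the supply of activated sugar and sulfate, 3 of 12 genes (25%) were higher and 6 (50%) lower. PAPSS1, which makes the sulfate donor (0.45, adjusted p = 0.000492), and UXS1, which makes UDP-xylose (0.39, adjusted p = 0.000931), were higher. The nucleotide sugar transporter genes SLC35D1 (-0.92, adjusted p = 1.81e-06) and SLC35D2 (-0.82, adjusted p = 4.23e-06) were lower. An unnamed gene on the same strand shares 46.9% of the exon bases of SLC35D2 and had 205 and 193 counts in shCon and 459 and 365 in shUBXN1, so the split of reads between them is uncertain.

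The ectodomain release list holds enzymes that release the extracellular part of syndecans and glypicans. It also holds enzymes with other or broader targets, such as HPSE, BMP1 and FURIN. Of its 9 tested genes, 5 (55.6%) were higher and 4 (44.4%) lower, beside 28.0% and 28.2% of all genes tested. ADAM17, a sheddase of syndecans, went from 58.7 to 105 CPM (0.84, adjusted p = 5.24e-07), and BMP1, a protease that cleaves perlecan, from 74.7 to 145 (0.96, adjusted p = 7.56e-08). The opposite-strand gene IAH1 shares 10.3% of the exon bases of ADAM17 and had 627 and 534 counts in shCon and 569 and 583 in shUBXN1. FURIN, the convertase that processes many secreted proteins, went from 76.2 to 29.9 CPM (-1.35, adjusted p = 7.23e-09), and MMP7, which cleaves syndecan-1, from 333 to 157 (-1.09, adjusted p = 2.90e-08). Of 9 tested proteins that bind or act with syndecan tails, 1 was higher and 5 were lower, and without shUBXN1 replicate 1 the counts were 3 and 6. With all libraries kept, the 1 higher and 5 lower are 11.1% and 55.6% of the tested tail partners, beside 28.0% and 28.2% of all genes. CASK, a scaffold of the membrane (-0.84, adjusted p = 8.14e-07), and GIPC1, a partner of syndecan-4 (-0.82, adjusted p = 7.05e-07), were lower. CTTN, the actin-binding cortactin, was higher by a small amount (0.21, adjusted p = 0.0316), a call lost without either shCon library and with the GC trend removed.

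The labelled cell type was checked with marker lists. Their calls stand beside 28.0% higher and 28.2% lower of all genes tested at an adjusted p under 0.05, and the difference was not tested. Of 14 hepatocyte markers, 13 were tested, of which 9 were lower and 2 higher in shUBXN1. The markers summed to 4539 and 4697 CPM in shCon and to 3507 and 4100 in shUBXN1. Most of this sum came from the keratins KRT8 (log2 fold change -0.44) and KRT18 (0.31). Among the secreted markers, albumin (ALB, -1.97), APOB (-1.85), TTR (-3.08), TF (-1.96) and FGB (-4.02) were lower by more. SERPINA1 was higher (0.40). KRT8, KRT18 and ALB were present in every library, and APOA2 had at most 1 count. VCAN, DCN and LUM are also typical products of stellate cells and fibroblasts. Of 9 markers of those cells, COL1A2, COL3A1, PDGFRB and ACTA2 were at or under 15 counts in every library. Of the 5 that were tested, 3 were lower (LUM, DCN and LRAT) and RGS5 did not pass. COL1A1 was higher, with 10 and 4 counts in shCon and 58 and 59 in shUBXN1 (log2 fold change 3.11, adjusted p = 5.83e-05). The sum of the 9 markers, made mostly of LUM, was 36.0 and 36.8 CPM in shCon and 19.1 and 21.5 in shUBXN1. Of 7 endothelial markers, 3 were tested and 2 of these, KDR and PECAM1, were higher, with sums of 48.8 and 50.4 CPM in shCon and 93.0 and 100.1 in shUBXN1, while CLEC4G was at 0 and CDH5 and STAB2 were at or under 6 counts. Of 7 leukocyte markers, 2 were tested and CD68 was lower, with sums of 83.5 and 89.7 CPM in shCon and 73.4 and 71.2 in shUBXN1. PTPRC was at or under 4 counts, and CD3E and MS4A1 were at 0. The part of these markers in the differences of the members was not tested.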

How the data were processed

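Messenger RNA of MHCC97H cells was sequenced in 2 shCon and 2 shUBXN1 libraries, grouped by their labels. Per the paper's methods, reads were aligned to GRCh38 with HISAT2, while the submitters' processing notes name HISAT2 2.0.4, StringTie 1.3.0 and GRCh37. The counting tool and strand setting are not given in the sources used here. The authors deposited expected counts per gene, not normalized, with a gene length. Of their gene IDs 99.7% are in GENCODE release 44 (GRCh38), which gave symbols and coordinates.

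Expected counts were rounded, filtered with filterByExpr, scaled by TMM and tested with edgeR 4.0.16 (glmQLFit, glmQLFTest; R 4.3.3) across 16863 genes. Each SE was obtained from the log2 fold change and its F statistic. TPM used the deposited lengths. The script was tested on simulated data. Alternatives used limma 3.58.1, DESeq2 1.42.0, other scalings and filters, a GC trend and libraries left out. Groups of 2 libraries limit how well the spread is known.

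The members and lists were chosen with earlier results of these data known. Named genes are the members, UBXN1, up to 2 genes per list and direction with the smallest p among those called, the 3 profiles closest to VCAN, its tested neighbours and genes overlapping members. A planned comparison of protein sequences was not run.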

Additional observations from a re-analysis of the deposited data

How the results depend on the processing

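Of the 7 tested members, GPC1, SDC3 and SDC4 kept their direction and their side of the adjusted threshold under all 14 alternatives, and VCAN, given with no test, kept its direction (-4.84 to -3.20). AGRN did so in 12, SDC1 in 10 and HSPG2 in 7. HSPG2 changed sign with the GC trend removed, at -0.0014, and the number of other members called higher went from 0 to 1, in each case HSPG2, with total count scaling, with no filter on low counts, with at least 10 counts in every library and with the replicate block. With libraries left out it ranged from 0 to 1. The number called lower stayed between 3 and 5 under every alternative. It is not known whether the replicate numbers pair the samples. The labels do not say, and 2 pairs (correlation of deviations 0.0393) are too few to show it. The replicate block gave 5000 genes higher and 5023 lower at an adjusted p under 0.05, against 4727 and 4751 without it. This block also called SDC1 lower (adjusted p = 0.0381). At the fold change of 2, the 1997 genes higher and 1027 lower became 1028 and 524 with limma on log2(TPM + 1), and 1321 higher with at least 10 counts in every library. A fold change of 1.5 gave 3201 higher and 2435 lower. The cause of these changes was not tested. By construction the stricter filter tests fewer genes and a lower threshold passes more. The pseudocount of 1 shrinks fold changes of low genes, but the same setting also changed the scaling and the test. Over all 10 lists together, the counts of pathway genes called stayed within 1.5 times, while counts of single lists moved by more, as given with each list. DESeq2 called 0 versican proteases higher, and with at least 10 counts in every library the median of the versican partner list was 0.34 against 0.83. The median of the ectodomain release list, 0.61, changed sign with DESeq2 (-0.23), with no filter on low counts (-0.12) and with at least 10 counts in every library (-0.21), which tested 10, 10 and 8 of its genes in place of 9. With CPM in place of TPM the share of SDC1 among syndecans in shCon was 64.3%. With 2 libraries per group, a left-out library leaves a lone sample that is assumed to vary like the other group, and counts of 5 or fewer set the limit for SDC2, GPC3 and GPC4.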
